A study of Mus musculus with 12 samples.

Results

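The mucin and goblet cell genes are 9 rows, picked by gene name, of a table of 55401 genes measured by RNA sequencing in 12 libraries of mouse airway organoids: Muc1, Muc4, Muc16, Muc20, Muc5ac, Muc5b, Agr2, Spdef and Tff2. All 9 were found, each in a single row. The study asked which transcripts change while an airway epithelium closes a small, localized gap. In 6 dishes a femtosecond laser, a pulsed infrared laser that destroys single cells in the focus of a microscope, had ablated 10 adjacent cells in each of 45 organoids, and 6 control dishes of 45 organoids were not ablated. Organoids were collected 4.5 h later, and poly(A) RNA was sequenced from stranded libraries.

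The organoids of both groups were grown in a basement membrane gel from airway epithelial cells of adult C57BL/6J mice, in medium conditioned by L-WRN cells (which secrete Wnt3a, R-spondin and noggin) with epidermal growth factor and the ROCK inhibitor Y-27632, and were moved to unsupplemented FluoroBrite DMEM before the experiment. Cells of both groups carried a lentiviral histone 2A-mCherry fusion gene driven by a p63 promoter. Each ablation dish shares its number (1, 3, 4, 5, 6 or 7), passage and culture day with 1 control dish, giving 6 pairs. Pairs 1 and 3 were titled passage P2+14, pairs 4 and 5 passage P2+15 and pairs 6 and 7 passage P2+16. Pairs 1, 4 and 5 were at culture day 14 or 15, and pairs 3, 6 and 7 at day 18 to 20. The library numbers form 2 runs, here called library set 1 (pairs 1, 3 and 5) and library set 2 (pairs 4, 6 and 7). The labels do not say whether the pairs came from different mice. The p-values thus measure only the spread among these dishes, among their pairs or among the differences within pairs, depending on the fit. The titles of controls 4, 6 and 7 hold the word ablation beside a C, while their treatment label says control, and the treatment label was used.

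Values are normalized counts, that is, reads per gene divided by 1 size factor per library, and they summed to between 27297950 and 28504390 per library (median 27825073). Of the goblet cell markers (Muc5ac, Muc5b, Spdef, Agr2, Tff2, Foxa3, Clca1 and Itln1), 4 of 8 reached 10 normalized counts in at least 6 libraries, and the other 4 stayed under 10 in every library. The 8 basal cell markers summed to between 508644 and 653896 normalized counts per library, and Krt5, a keratin of basal cells, averaged 276858 alone. The 8 goblet markers together summed to between 347 and 791. Of the markers of ciliated cells 2 of 8, and of stromal cells 1 of 7, reached 10 counts in at least 6 libraries. Of the immune cell markers 3 of 5 did, and of the alveolar type II markers 1 of 5. The latter was Abca3, with a mean of 1125 normalized counts, while Sftpc was at 0 in all 12 libraries. Scgb1a1, the secretory protein that defines club cells, ranged from 0 to 9.65 normalized counts, although the 7 club cell markers together summed to between 75185 and 179385. That sum came mostly from Cbr2 (mean 64050) and Cyp2f2 (49001), followed by Aldh1a1 (3398). Scgb3a1 averaged 87.5, Scgb3a2 13.6 and Bpifa1 2.41. In bulk RNA, fewer cells of a type and less RNA per cell cannot be told apart.

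Mucins are very large proteins whose serine- and threonine-rich stretches carry dense O-linked sugar chains. The gel-forming mucins Muc5ac and Muc5b are secreted by goblet and other secretory cells and give airway mucus its body, whereas Muc1, Muc4, Muc16 and Muc20 are held in the apical membrane of epithelial cells. Spdef is an ETS-family transcription factor that drives goblet cell differentiation, Agr2 is a protein disulfide isomerase of the endoplasmic reticulum needed for mucin folding, and Tff2 is a small trefoil peptide secreted together with mucins.

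The members differed in level far more than the dishes did. Per kilobase of exon, as the table gives exon length, the median over 12 dishes was 305 normalized counts for Muc1, 209 for Agr2, 151 for Muc4 and 47.0 for Muc20. It was 7.12 for Muc16, 4.22 for Tff2, 0.838 for Spdef, 0.744 for Muc5b and 0.184 for Muc5ac. Among the 13792 genes that reached 10 normalized counts in 6 or more libraries, which are the genes tested below, these levels per kilobase stood at percentile 65.5 for Muc1, 55.3 for Agr2 and 47.4 for Muc4, at 26.3 for Muc20 and at 6.29 for Muc16. The levels of Muc5b and Muc5ac per kilobase stood at percentile 0.0725 and 0. Muc1, Agr2 and Muc4 thus lay near the middle of the expressed genes, and the gel-forming mucins at the bottom.

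**Figure D1:**
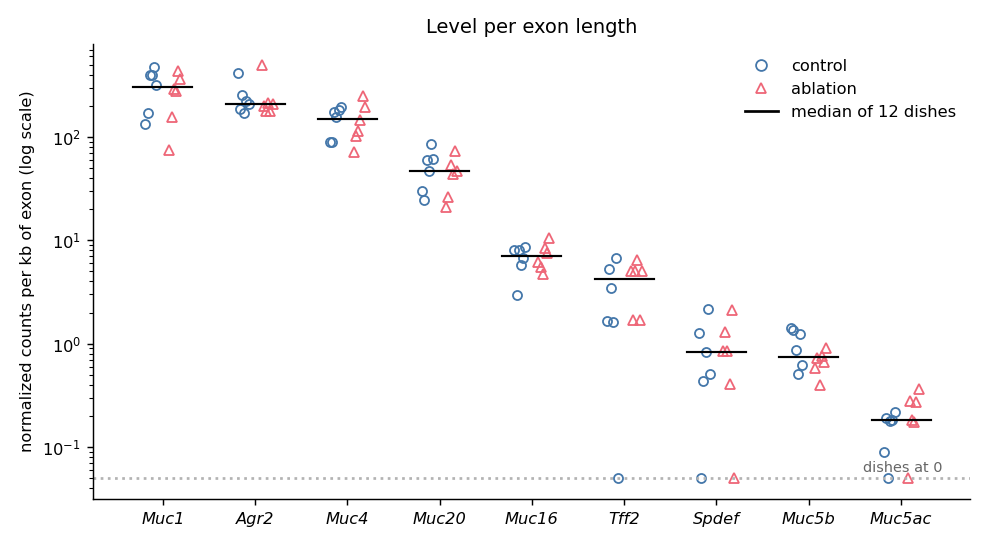
Normalized counts per kilobase of exon (log scale) of the 9 genes in 6 control dishes (circles) and 6 ablation dishes (triangles), with the median of all 12 dishes as a line and values of 0 placed on the dotted line. Medians run from 305 for Muc1 to 0.184 for Muc5ac, and the ranges of control and ablation dishes overlap for every gene.

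In that order, only the steps from Muc20 to Muc16 and from Muc5b to Muc5ac separated neighbours whose ranges over the 12 dishes did not overlap. Muc4 was above Muc20 per kilobase in 12 of 12 dishes and Agr2 above Muc4 in 11 of 12. Muc1 was above Agr2 in 8 of 12 dishes, Muc16 above Tff2 in 10 of 12 and Tff2 above Spdef in 10 of 12. Spdef and Muc5b changed places from dish to dish, with Spdef higher in 6 of 12.

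For the 4 members highest per kilobase, the 250 bases before the start site are shown, 5′ to 3′ on the gene's strand, from RefSeq's promoter windows on GRCm38.p6, in which 6 of the 9 members had an entry. RefSeq's start of Agr2 lies slightly downstream of the start in the table. Capitals mark GC boxes (GGGCGG) and TATA boxes (TATAAA). Muc1 is at chr3:89228806-89229055 on the plus strand, Muc4 at chr16:32735636-32735885 on the plus strand, Muc20 at chr16:32797436-32797685 on the minus strand and Agr2 at chr12:35992675-35992924 on the plus strand.
Muc1: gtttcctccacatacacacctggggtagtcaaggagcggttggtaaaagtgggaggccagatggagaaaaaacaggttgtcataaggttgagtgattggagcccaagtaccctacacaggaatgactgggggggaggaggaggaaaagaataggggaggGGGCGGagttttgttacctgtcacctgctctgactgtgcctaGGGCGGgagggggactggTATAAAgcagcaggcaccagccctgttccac
Muc4: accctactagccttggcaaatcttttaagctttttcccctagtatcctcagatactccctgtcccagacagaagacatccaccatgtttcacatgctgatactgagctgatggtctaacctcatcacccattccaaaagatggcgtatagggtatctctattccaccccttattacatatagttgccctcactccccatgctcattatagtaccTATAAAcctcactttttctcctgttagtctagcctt
Muc20: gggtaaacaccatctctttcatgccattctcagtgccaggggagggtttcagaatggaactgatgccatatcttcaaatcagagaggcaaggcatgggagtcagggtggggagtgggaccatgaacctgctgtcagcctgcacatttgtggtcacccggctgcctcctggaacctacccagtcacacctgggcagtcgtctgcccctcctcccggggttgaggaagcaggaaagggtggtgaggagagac
Agr2: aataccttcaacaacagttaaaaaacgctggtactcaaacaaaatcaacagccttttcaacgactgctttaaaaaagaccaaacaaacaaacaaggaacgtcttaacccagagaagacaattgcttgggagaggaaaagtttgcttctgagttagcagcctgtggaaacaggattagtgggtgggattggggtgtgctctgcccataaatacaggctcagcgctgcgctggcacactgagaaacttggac

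Searched on both strands, the GC box letters stood 91 and 49 bases before the Muc1 start and in none of the other 3 windows, and 32.7% of 32851 promoter windows of this length hold them. The TATA box letters began 31 bases before the Muc1 start and 36 bases before the Muc4 start, against 12.4% of all windows, and no match overlapped another. None of the 4 windows held the AP-1 letters TGANTCA (6.7% of windows), the STAT letters TTCNNNGAA (7.0%) or the ETS letters CCGGAA (12%). GC content was 54.8% for Muc1, 43.6% for Muc4, 57.2% for Muc20 and 44.4% for Agr2, with a median of 52.4% over all windows.

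Muc1 (ENSMUSG00000042784.9, chr3:89229057-89233381, GRCm38.p6), a membrane mucin with a signalling cytoplasmic tail, is shown first. The control dishes had between 316 and 1101 normalized counts with a median of 839, and the ablation dishes between 174 and 1016 with a median of 666. The groups overlapped, while the 4 dishes of pairs 1 and 3 were the 4 lowest of all 12. Means were 624 ± 309 after ablation and 738 ± 317 in the control (SD, n = 6 each). Muc1 was lower after ablation in 5 of 6 pairs.

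Muc4 (ENSMUSG00000079620.13, chr16:32735886-32782391, plus strand), a large membrane mucin that binds the receptor ErbB2, had between 1058 and 2294 normalized counts in the control dishes (median 1947) and between 836 and 2949 after ablation (median 1531). As for Muc1, the 4 dishes of pairs 1 and 3 were the lowest, and the 4 dishes of pairs 6 and 7 were the highest. Means were 1722 ± 778 after ablation and 1739 ± 547 in the control (SD, n = 6 each). Muc4 was lower in 4 of 6 pairs.

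Muc20 (ENSMUSG00000035638.14, chr16:32777419-32797435, minus strand), a membrane mucin, had between 99.3 and 346 normalized counts in the control dishes (median 214) and between 84.8 and 292 after ablation (median 182). Its 4 lowest dishes were again those of pairs 1 and 3. Means were 177 ± 75.8 after ablation and 207 ± 90.8 in the control (SD, n = 6 each), and 5 of 6 pairs were lower after ablation. Muc4 and Muc20 run towards each other, and their exons share 627 bases on opposite strands, of 11757 exon bases in Muc4 and 4027 in Muc20. The library kit marks strand, but whether counting used it is not given in the sources used here, so the reads of those bases cannot be assigned with certainty. No exon of another gene overlaps those of the other 7 members.

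Muc16 (ENSMUSG00000109564.1, chr9:18495455-18674530), the very large membrane mucin known as CA125 in humans, had between 77.8 and 226 normalized counts in the control dishes (median 195) and between 124 and 274 after ablation (median 180). The lowest dish was control 3 and the highest ablation 7. Means were 187 ± 55.5 after ablation and 176 ± 55.1 in the control (SD, n = 6 each).

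Agr2 (ENSMUSG00000020581.11, chr12:35992907-36004087) was the one goblet cell gene among the 9 at a level like that of the membrane mucins. The control dishes had between 218 and 540 normalized counts (median 280) and the ablation dishes between 229 and 645 (median 263). Both dishes of pair 1 stood apart at 540 and 645, and the other 10 lay between 218 and 329. Means were 317 ± 162 after ablation and 315 ± 117 in the control (SD, n = 6 each).

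Muc5b (ENSMUSG00000066108.7, chr7:141839070-141873084) had between 7.66 and 21.2 normalized counts in the control dishes (median 15.9) and between 5.94 and 13.6 after ablation (median 10.4). The 3 highest dishes were controls 1, 3 and 6, yet the groups overlapped. Means were 10.1 ± 2.60 after ablation and 15.1 ± 5.87 in the control (SD, n = 6 each), and 4 of 6 pairs were lower after ablation.

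Muc5ac, Spdef and Tff2 did not reach 10 normalized counts in any dish. Muc5ac (ENSMUSG00000037974.16, chr7:141788972-141819231) ranged from 0 to 2.34 in the control and from 0 to 3.89 after ablation. Spdef (ENSMUSG00000024215.14, chr17:27714352-27728955) ranged from 0 to 4.94 in both groups. Tff2 (ENSMUSG00000024028.7, chr17:31141049-31144282) ranged from 0 to 3.95 in the control and from 0.987 to 3.75 after ablation. Summed over all 12 dishes these genes gave 22.9, 24.7 and 25.5 normalized counts. No difference between the groups was detected at these low counts. Exact permutation tests of log2 values over the 924 ways to divide the dishes gave two-sided p = 0.463 for Muc5ac, p = 0.892 for Spdef and p = 0.379 for Tff2.

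The genes beside the low members differed among themselves. In the cluster of gel-forming mucins on chromosome 7, Muc6 was listed at 0 in all 12 dishes and Muc2, the main mucin of the intestine, ranged from 0 to 1.17 with 7 of 12 dishes at 0. In the trefoil cluster on chromosome 17, Tff3 was listed at 0 in all 12 dishes. Tff1, on the other side of Tff2, ranged from 22.2 to 203 normalized counts with a median of 79.5.

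**Figure D2:**
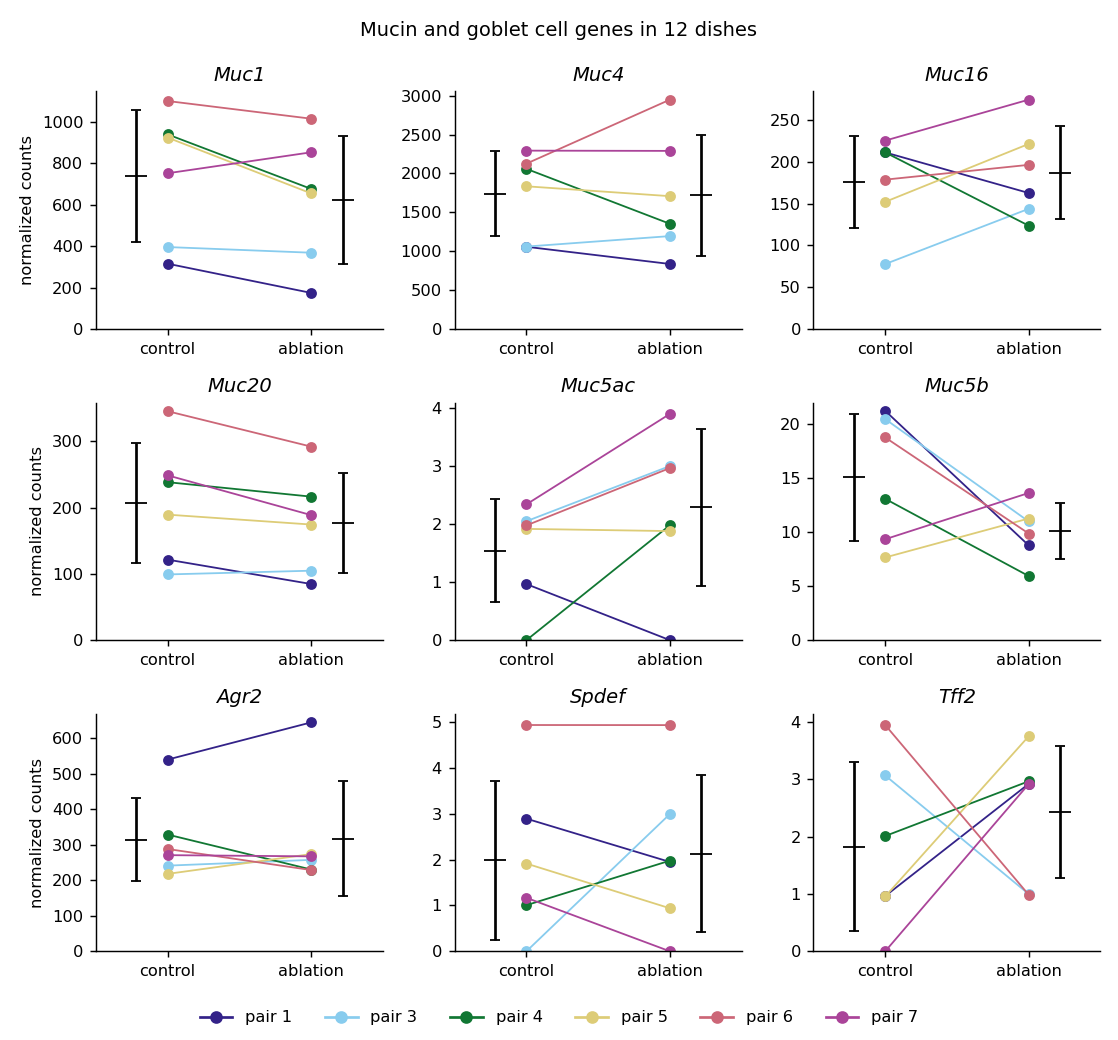
Normalized counts (linear scale from 0) of the 9 genes in control and ablation dishes, with both dishes of a pair joined by a line and the mean ± SD of 6 dishes in black at the outer side. The ranges of control and ablation overlap in every panel, and for Muc1, Muc4 and Muc20 the lines of the pairs lie at different heights, from pairs 1 and 3 at the bottom to pair 6 or 7 at the top.

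Ablation against control was tested for the 6 members that passed the count minimum (Muc1, Muc4, Muc16, Muc20, Muc5b and Agr2), with limma on log2(normalized count + 1) and the library set as second factor. None of the 6 passed an adjusted p of 0.05, and 0% of all 13792 genes did, while 7.85% had an unadjusted p under 0.05, which none of the 6 had. The log2 difference of ablation minus control was -0.31 (SE 0.31, 95% interval -0.97 to 0.36) for Muc1, -0.22 (interval -0.65 to 0.21) for Muc20 and -0.48 (interval -1.09 to 0.12) for Muc5b. It was -0.07 (interval -0.52 to 0.38) for Muc4, 0.12 (interval -0.41 to 0.64) for Muc16 and -0.03 (interval -0.58 to 0.52) for Agr2. The lowest adjusted p among the 6 was 0.704, for Muc5b.

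Dishes of a pair resembled each other across genes, and with the pair as a block 1.09% of all genes (150) passed the threshold, against 17.6% before adjustment at a p under 0.05. None of the 6 members was among the 150. In this paired fit the differences of Muc1 (-0.31, SE 0.12, interval -0.57 to -0.05, adjusted p = 0.206) and Muc20 (-0.22, SE 0.093, interval -0.42 to -0.02, adjusted p = 0.238) had intervals on one side of 0 before adjustment. A gene lower or higher in at least 5 of 6 pairs, as both were, was no rarity, with 36.3% of all genes. The paired fit gave an adjusted p of 0.391 for Muc5b, 0.796 for Muc16, 0.836 for Muc4 and 0.910 for Agr2.

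The differences within pairs were set against culture day. Only P2+14 has both an earlier and a later pair, pairs 1 and 3. At P2+15 both pairs were earlier and at P2+16 both were later, so day cannot be told apart from passage or date here. Library set is only partly balanced over day. For Muc1 the log2 difference of ablation minus control was -0.85, -0.47 and -0.50 in pairs 1, 4 and 5 (day 14 or 15), and -0.10, -0.12 and 0.18 in pairs 3, 6 and 7 (day 18 to 20). The 2 sets of pairs did not overlap, which was so for 11.4% of all genes. The interaction of ablation and day, with the pair as a block, was 0.59 (SE 0.13) for Muc1 and 0.56 (SE 0.14) for Muc4 as a log2 value, and both had an adjusted p of 0.747. For Muc4 the difference was -0.34, -0.61 and -0.10 in the earlier pairs and 0.17, 0.47 and -0.00 in the later ones, again without overlap. No gene passed this test (0%), 5.82% had an unadjusted p under 0.05, and the unadjusted limma p was 0.000803 for Muc1 and 0.00267 for Muc4. Testing all genes with any count gave Muc1 an adjusted p of 0.0485 at the same log2 value of 0.59, with 21 of 28534 genes past the threshold. With limma's plain eBayes step, without trend and robust estimation, its adjusted p was 0.878. For Muc16, Muc20, Muc5b and Agr2 the adjusted p ranged from 0.896 to 0.979 in the first of these fits.

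**Figure D3:**
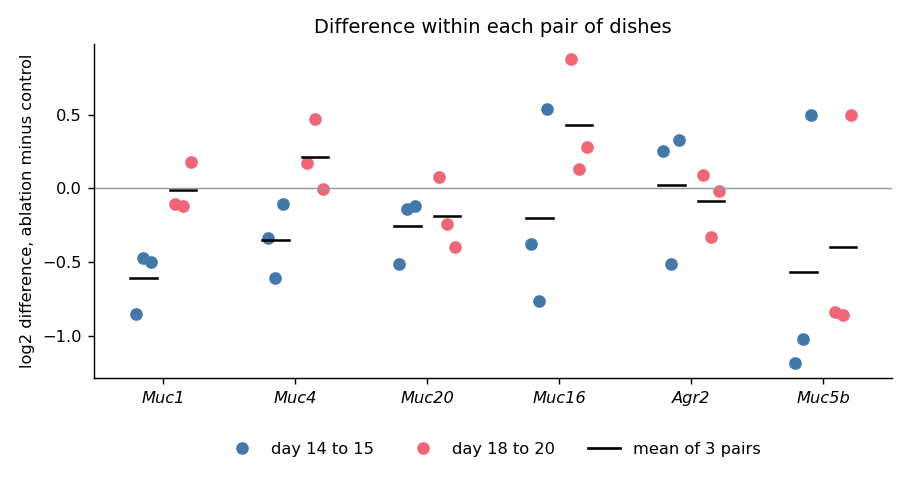
Log2 difference of ablation minus control within each of 6 pairs (points) for the 6 tested genes, divided into pairs at day 14 to 15 (blue) and day 18 to 20 (red), with the mean of 3 pairs as a line. For Muc1 the 3 earlier pairs lie between -0.85 and -0.47 and the 3 later ones between -0.12 and 0.18, whereas for Muc20, Muc16, Agr2 and Muc5b the colours mix.

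Levels were also compared between pairs and within them. Without any pair effect, the SD of the means of 2 dishes would be about 0.71 times that of single dishes. The SD of the pair means on the log2 scale was 4.40 times the SD within pairs for Muc20, 3.17 times for Muc1, 2.09 times for Agr2 and 2.08 times for Muc4, and between 0.299 and 1.05 times for the other 5. No member passed a test of culture day, which cannot be told apart from passage or date here either. Later minus earlier pairs gave a log2 difference of 0.38 for Muc1, 0.41 for Muc4, 0.25 for Muc20 and -0.40 for Agr2 (limma on pair means, adjusted p = 0.994 for each), and 0% of genes passed, with 4.52% at an unadjusted p under 0.05. Without pair 1 these differences were -0.20 for Muc1, 0.12 for Muc4, -0.085 for Muc20 and -0.0060 for Agr2.

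By passage number, Muc4 was higher at each later passage, and Muc1 and Muc20 were lowest at P2+14. This comparison was added after the values had been seen, so its p-values describe a pattern that was looked for because it was visible. Muc4 averaged 1037 ± 148 normalized counts at P2+14, 1739 ± 295 at P2+15 and 2415 ± 365 at P2+16 (SD of the 4 dishes of 2 pairs at each passage). The highest dish of each passage was below the lowest dish of the next, at 1195 against 1353 and at 2059 against 2127, an order shared by 23 of 13792 genes (0.167%). The slope of Muc4 was 0.61 per passage on the log2 scale (SE 0.057), with adjusted p = 0.0186 from limma on the 6 pair means. It was 1 of 5 genes past the threshold (0.0363% of those tested), beside Tbx15, Camk2n1, Gda and Dnm3, which all rose too.

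The Muc4 call was fragile. It was lost without pair 4 (adjusted p = 0.113), pair 6 (0.234) or pair 7 (0.0705), in the control dishes alone (0.0603), in the ablation dishes alone (0.135) and with limma's plain eBayes step (0.0788). With library set in the model beside passage, the slope was 0.65 and the adjusted p 0.9997. Both P2+14 pairs belong to set 1 and both P2+16 pairs to set 2, so that only P2+15 has a pair in each. Within set 1 the pair mean of Muc4 was 0.78 higher at P2+15 than at P2+14 on the log2 scale. Within set 2 it was 0.52 higher at P2+16 than at P2+15. At P2+15 the pair of set 2 was 0.09 lower than that of set 1. Dates in the titles rise with passage, and the 2 cannot be told apart.

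Muc1 averaged 314 ± 98.6 normalized counts at P2+14, 799 ± 154 at P2+15 and 931 ± 157 at P2+16, and Muc20 averaged 103 ± 15.2, 205 ± 28.4 and 269 ± 66.5 (SD of 4 dishes each). For both genes the 4 dishes at P2+14 were below all other dishes, and those at P2+15 and P2+16 overlapped. All 4 P2+14 dishes lay below the other 8 in 2.35% of all genes. The slopes were 0.81 per passage for Muc1 (SE 0.16, adjusted p = 0.171) and 0.68 for Muc20 (SE 0.12, adjusted p = 0.128), and 12.2% of all genes had an unadjusted p under 0.05. The rank by p among 13792 genes was 3 for Muc4, 38 for Muc20 and 87 for Muc1. Slopes of Muc16 (0.31, adjusted p = 0.394), Agr2 (-0.27, adjusted p = 0.568) and Muc5b (-0.10, adjusted p = 0.838) did not pass. That of Agr2 was 0.04 without pair 1, the pair with the highest Agr2.

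**Figure D4:**
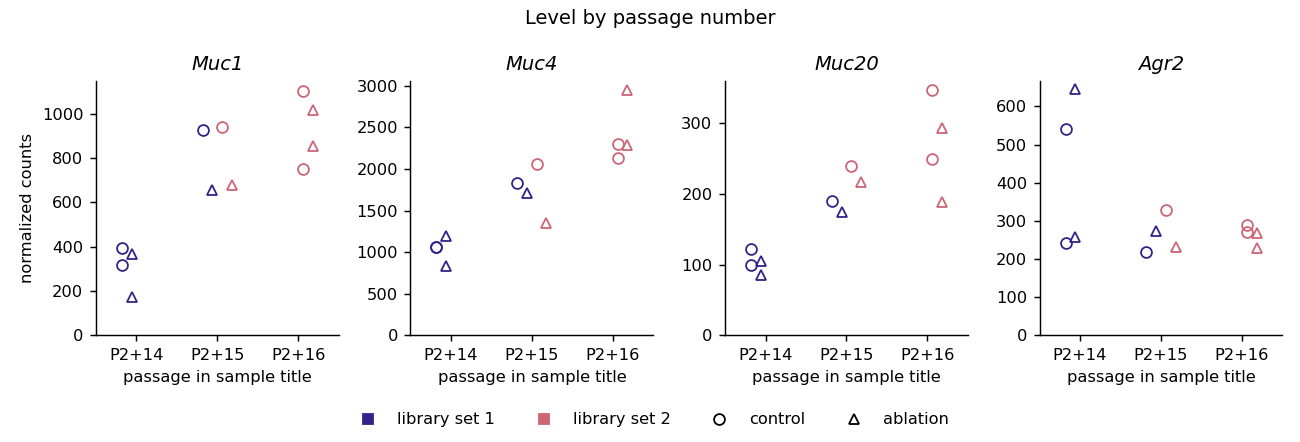
Normalized counts (linear scale from 0) of Muc1, Muc4, Muc20 and Agr2 in each dish against the passage in its title, with colour for the library set, circles for control and triangles for ablation. Muc4 rises without overlap from 836 to 1195 at P2+14 to 2127 to 2949 at P2+16, Muc1 and Muc20 are lowest at P2+14, and in Agr2 only the 2 dishes of pair 1 stand above the rest.

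The 8 basal cell markers summed to between 610374 and 653896 normalized counts in the P2+14 dishes, 530505 and 620691 in the P2+15 dishes and 508644 and 581662 in the P2+16 dishes. Of the 8, 0 passed the slope test, 2 had a slope above 0 and 6 below, with 2 at an unadjusted limma p under 0.05, and their part in the slopes of the mucins was not tested. The club cell sums overlapped between P2+14 and P2+16 (75185 to 179385 and 100191 to 138768), as did the squamous and hillock sums (129695 to 147919 and 118174 to 141388).

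The levels of Muc1, Muc4 and Muc20 rose and fell together over the 12 dishes. Over the 12 dishes, which share pairs and library sets, Pearson's r of the log2 values was 0.916 for Muc1 and Muc4, 0.918 for Muc1 and Muc20, and 0.886 for Muc4 and Muc20. After centring within each library set it was 0.832, 0.846 and 0.736. Centring leaves the differences between pairs in place. Muc1, Muc4 and Muc20 were all lower after ablation in pairs 1, 4 and 5. In pairs 3, 6 and 7 their directions differed. Agr2 and Muc1 had r = -0.710 before and -0.712 after centring, but pair 1 had the lowest Muc1 and the highest Agr2 of all pairs. In the other pairs the mean log2 value of Agr2 stayed between 7.94 and 8.11, while that of Muc1 ran from 8.58 to 10.05. The r without pair 1 was not computed, so no opposition of the 2 genes beyond pair 1 is shown. Muc4 and Muc20 share 627 exon bases, whose reads cannot be assigned with certainty. The part of these reads in the r values and passage slopes was not tested. Of the searched motifs, the promoter windows of Muc1 and Muc4 shared the TATA box letters, and that of Muc20 held none. Any part of these motifs in the r values was not tested. The share of all genes with an r as high as that between these members was not computed. The genes most like each member are given as a description only, since the highest r of so many genes over 12 dishes is high through selection. Of all genes tested, those most like Muc1 by centred r were Taf15 (0.956), Il23a (0.945) and Rock2 (0.945). Those most like Muc4 were Arap2 (0.932), Ice1 (0.931) and Cpeb2 (0.924), and those most like Muc20 were Adamtsl3 (0.931), Ets2 (0.902) and Gtpbp2 (0.897). Muc16 was most like Pcdhb20 (0.916), Dip2b (0.900) and Ahnak (0.874). Agr2 was most like 1700055D18Rik (0.953), Pik3r2 (0.949) and BC064078 (0.945).

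Genes that build, fold and release mucins were counted as whole lists. Of 20 other mucins and mucin-like genes, 17 had a row under the name searched, and 7 were tested. Of these 7, 0 passed the threshold in either limma fit, with 1 at an unadjusted p under 0.05 in each. Over all genes these unadjusted shares were 7.85% in the library set model and, with pairs, 17.6%. The most abundant were the sialomucin Cd164 (mean 11622 normalized counts over 12 dishes) and Parm1 (831). Of 18 regulators of the goblet program, 13 were tested and 0 passed in either, with 0 (library set model) and 3 (paired fit) at an unadjusted p under 0.05. The most abundant were the epithelial transcription factors Klf4 (18657) and Ehf (10181), while Atoh1, which specifies secretory cells in the intestine, was listed at 0 in all dishes. The median log2 difference of ablation minus control was -0.01 for the other mucins and 0.08 for the regulators, and -0.00 over all genes.

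Of 25 genes of mucin O-glycosylation, 21 were tested, and the library set model called 0, with 2 at an unadjusted p under 0.05 (7.85% of all genes). The paired fit called 1 (1.09% of all genes), with 7 at an unadjusted p under 0.05 (17.6% of all genes) and a median difference over the list of -0.03. This was Galnt6, an enzyme that starts O-linked chains and the most abundant of the list (4374), followed by B3gnt3 (3540), which extends them. Galnt6 was between 3535 and 5795 normalized counts in the control (median 4723) and between 3374 and 4872 after ablation (median 3929). The groups overlapped, but all 6 pairs were lower after ablation. Its log2 difference was -0.24 (SE 0.044, adjusted p = 0.0214 in the paired fit and 0.703 in the library set model).

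Of 28 genes of goblet granule content, folding and secretion, 19 were tested, with a median difference of -0.03. The library set model called 0, with 3 at an unadjusted p under 0.05 (7.85% of all genes). The paired fit called 2 (1.09% of all genes), both higher after ablation, with 5 at an unadjusted p under 0.05 (17.6% of all genes). Clca1, a protease-like protein secreted with mucus by goblet cells, was between 49.1 and 94.8 normalized counts in the control (median 68.0) and between 66.9 and 128 after ablation (median 108). The groups overlapped, and all 6 pairs were higher. Its log2 difference was 0.56 (SE 0.12, adjusted p = 0.0423 in the paired fit and 0.537 in the library set model). Scin, which encodes scinderin, an actin-severing protein of secretory cells, was between 544 and 634 in the control (median 608) and between 685 and 899 after ablation (median 729), so the groups did not overlap, as in 0.457% of all genes. Its log2 difference was 0.31 (SE 0.060, adjusted p = 0.0255 in the paired fit and 0.187 in the library set model). The most abundant of the list were the sulfhydryl oxidase Qsox1 (3679) and Marcks (3607), a membrane-bound actin regulator. All 6 pairs moved one way in 9.8% of all genes, as they did in Galnt6, Clca1 and Scin. The paired call of Galnt6 was lost without pair 3 (adjusted p = 0.0511) or pair 4 (0.0900). That of Scin was lost without pair 1 (0.0557), pair 4 (0.118) or pair 5 (0.0779), and that of Clca1 held only without pair 6 (0.0488), with adjusted p up to 0.161 otherwise. With plain eBayes the paired adjusted p was 0.156 for Galnt6, 0.139 for Scin and 0.121 for Clca1.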

How the data were processed

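Poly(A) RNA of 12 organoid dishes was sequenced in paired-end reads. The authors processed reads with nf-core/rnaseq on the GENCODE annotation of GRCm38.p6 and normalized them with DESeq2. The aligner and read counter are not given in the sources used here. The deposited signal values are normalized counts, for which the authors divided reads per gene by 1 size factor per library. This scaling assumes that most genes do not differ between libraries. The deposited table also holds log2 fold changes, score columns (standard errors and Wald statistics) and p-values of the authors' own comparison, none of which was used. Every column held whole multiples of a single step (100% of values within a tolerance of 0.02 for values up to 2000). Whole reads were recovered for 9 libraries, 23631213 to 29775699 each (median 28341575). The steps of ablation 3, ablation 4 and control 4 lay too near 1 to be accepted by the rule used here. Count models were run without these dishes, and limma was used for all 12 in place of edgeR.

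Genes that reached 10 normalized counts in 6 or more libraries (13792 of 55401, with 28534 at any count) were tested with limma 3.58.1 in R 4.3.3 on log2(normalized count + 1), with eBayes trend and robust estimation and Benjamini-Hochberg adjustment over all genes tested. Differences on this scale understate those of low genes. The study names a batch without defining it, and the library set stood for it. The pair replaced the library set in the paired fit. Same-numbered dishes share passage and day, and their deviations from group means correlated across genes with r from 0.205 to 0.618, against -0.135 to -0.0248 on average with other numbers. Day was tested on pair means and as an interaction with ablation. Tests were tried on simulated data whose noise was independent between libraries. That noise held no pair effect, so the trial does not cover the likeness of paired dishes seen here. The members, lists and the model settings were chosen with earlier results of these data known, and the passage slope was added after the members' values were seen. Alternatives were the pseudocount, count filter, TMM factors, quantile normalization, plain eBayes, leaving out each pair, each library set alone, and edgeR 4.0.16 and DESeq2 1.42.0 on recovered reads. Named list genes are the 2 most abundant tested and any past the threshold. The genes most like Muc5b are not reported here.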

Additional observations from a re-analysis of the deposited data

Results flagged for a closer look

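Each of the 9 genes was checked in each group of 6 dishes for a highest or lowest dish that lay far from the rest, with the gap to the nearest dish as a share of the group's range set against Dixon's 95% critical value. Of 18 combinations, 2 exceeded it, and chance flags about 1 in 20. Both were Agr2 in pair 1. Ablation 1 had 645.3 normalized counts, with the next dish at 274 and a gap of 0.892 of the range. Control 1 had 540.4, with the next dish at 329 and a gap of 0.656 of the range.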

How the results depend on the processing

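No alternative moved any of the 6 tested members past the threshold for ablation. Ablation against control called 0 genes, but 3 with every counted gene tested, 150 with the replicate block, 11 with DESeq2 and 3 with edgeR and the block on recovered reads. The paired count of 150 became 356 with every counted gene and 0 with plain eBayes, and was 90, 8 and 77 without pairs 3, 4 and 5, within a range of 8 to 176 when 1 pair was left out. Later against earlier days called 3 genes with every counted gene and 1 with library set added. The interaction called 21 genes with every counted gene, of which 1 was a member (Muc1, 0.59, adjusted p = 0.0485). The passage slope called 5 genes, but 132 with every counted gene, 3 with at least 50 counts, 0 with plain eBayes, 10 in control dishes, 1 in ablation dishes and 0 with library set added, and 0 to 17 without 1 pair. Of these, 2 were members with every counted gene (Muc4, and Muc20 with adjusted p = 0.00348), 0 to 1 without 1 pair, and 0 with plain eBayes, in control dishes, in ablation dishes or with library set added. The cause was not tested.

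Small log2 differences changed sign. For ablation, leaving out 1 pair gave Muc4 -0.18 to 0.040 (positive without pair 4, paired or not), Muc16 -0.037 to 0.29 (negative without pair 3, paired or not) and Agr2 -0.10 to 0.065 (positive without pair 4 and, at 0.029, pair 6, paired or not). The count tests changed both the tool and the libraries, of which they had 9, without pair 4 and ablation 3 (8 with the block, without control 3 too). In them Muc4 was 0.083 with edgeR (0.024 with the block) and 0.087 with DESeq2. Muc16 was -0.12 in library set 2, and Agr2 was 0.23 in set 1, and 0.18 with edgeR (0.073 with the block) and 0.18 with DESeq2. For day, leaving out 1 pair gave Muc1 -0.20 to 0.81, Muc16 -0.32 to 0.29 and Muc20 -0.12 to 0.70, and Muc16 was 0.26 in ablation dishes and Muc20 -0.10 with library set added. For the interaction it gave Muc20 -0.062 to 0.18, Muc5b -0.28 to 0.70 and Agr2 -0.38 to 0.043, and for the slope Muc5b -0.22 to 0.0013 and Agr2 -0.50 to 0.036. The slope of Muc5b was 0.11 in ablation dishes. Depth limits Muc5ac, Spdef and Tff2, which stayed under 10 normalized counts.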

Other observations

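Foxa2, a forkhead factor known to restrain mucus production in the airway, fell under the count minimum with 2 of 12 dishes at 10 normalized counts or more. It was singled out after its values were seen. The control dishes had between 1.17 and 5.12 normalized counts (median 3.89) and the ablation dishes between 6.57 and 14.0 (median 7.85). The groups did not overlap, and Foxa2 was higher after ablation in 6 of 6 pairs. Of the 13792 genes above the minimum, 0.457% had groups without overlap and 9.8% had all 6 pairs in one direction. A two-sided exact permutation test over 924 divisions of the dishes gave p = 0.00217, the smallest it can give. Groups without overlap always give this value, so it restates the separation and makes no allowance for the choice of the gene. Foxa3, also under the minimum, averaged 1.94 ± 1.01 normalized counts after ablation and 4.38 ± 3.33 in the control (SD, 6 dishes each). It ranged from 0 to 9.88 over the 12 dishes, and its difference was not tested.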
